A study of Mus musculus with 4 samples.

Results

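The TRIM genes encode a large family of mostly ubiquitin ligases, and this account follows every gene of the family that carries a numbered Trim symbol. Members were the rows of the gene count table whose symbol is Trim followed by a number and at most 1 letter, with at least 1 count in any library. Of 50763 genes in the table, 68 matched and 66 had a count, while Trim58 and Trim75 had none. The samples were polyadenylated RNA of cells purified from mouse testis, titled pachytene spermatocytes and otherwise labelled meiotic cells, in 2 libraries from Hsf5 knockdown mice and 2 libraries from WT mice. Hsf5 is a heat shock factor of the male germ line, and the stated purpose was to compare gene expression at the pachytene stage with and without it. The sources used here do not give how the knockdown was made, the strain, the age or the number of animals.

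A TRIM protein is built from a RING finger, 1 or more B-box zinc fingers and a coiled coil, followed by a variable end that selects what the ligase binds. The RING finger recruits a ubiquitin-loaded E2 enzyme, and the coiled coil joins TRIM molecules into dimers. Many members act in antiviral signalling and are induced by interferon, others repress chromatin or hold cytoskeletal structures together in nerve and muscle, and several were first described in testis. In mouse the antiviral members lie partly in a tandem cluster of recently duplicated genes.

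The libraries held 42479164 and 33947608 counts in the knockdown and 39331933 and 33287428 counts in WT. Levels are CPM, counts scaled to a library of equal size, corrected between libraries with the trimmed mean of M-values (TMM), and differences are log2 fold changes of knockdown over WT with an approximate standard error (SE). A gene is said to have risen or fallen where edgeR's quasi-likelihood test gave a Benjamini-Hochberg adjusted p below 0.05 over all 23594 genes tested. Hsf5 itself was at 287 and 238 CPM in the knockdown, against 586 and 449 CPM in WT, a log2 fold change of -0.98 (SE 0.31, adjusted p = 0.0217). It therefore fell to an intermediate level rather than to 0.

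Markers of several cell types differed in level between the genotypes. The summed level of 10 round and elongating spermatid markers was 22.4 and 13.8 CPM in the knockdown, against 3838 and 1895 CPM in WT, with Prm2 and Smcp at 0 in both knockdown libraries. Of 11 tested pachytene markers 7 fell and 2, Sycp1 and Hormad1, rose, and their sum was 2490 and 1941 CPM against 9322 and 8416 CPM in WT. Summed spermatogonial markers were 909 and 816 CPM in knockdown libraries and 186 and 177 CPM in WT, and 10 of 13 rose. All 10 Sertoli cell markers rose, with sums of 3546 and 4284 CPM in knockdown libraries and 172 and 417 CPM in WT, and so did all 7 Leydig cell markers, at 1408 and 2861 CPM against 116 and 793 CPM. Macrophage and lymphocyte markers summed to 212 and 69.7 CPM in knockdown libraries and 13.3 and 13.9 CPM in WT, and 11 of 12 rose, while 2 of 6 endothelial markers rose, with sums of 18.6 and 45.4 CPM in knockdown libraries and 10.4 and 18.5 CPM in WT. Fewer cells of a type and less RNA per cell cannot be told apart in such bulk libraries, and the part of these markers in the results below was not tested.

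Low counts kept 10 of the 66 members out of the test. A gene with few counts in 1 group could pass this filter through the other group alone. Of the 56 tested, 27 rose, 17 fell and 12 did not pass. Over all genes tested 27.4% rose, 33.5% fell and 60.9% did either, so that the members' 48.2% that rose lay above that background and their 30.4% that fell lay near it. Every one of the 27 rises and 17 falls was at least 2-fold, and 14 rises and 10 falls were at least 8-fold. The members' median log2 fold change was 1.15, beside -0.12 over all genes. Both knockdown libraries lay above both WT libraries for 31 members and below both for 19, beside 39% and 43.7% of all genes, and the groups overlapped for 6. With libraries scaled on genes of the synaptonemal complex and cohesin, 13 of 56 members rose and 19 fell. Of all 23594 genes 2949 rose and 9094 fell on that scale, so rises were fewer in both. The medians were 0.46 for the members and -0.85 for all genes. The members' median stood above that of all genes by 1.27 with TMM scaling, by 1.28 with library totals and by 1.31 with the synaptonemal complex and cohesin genes. Without knockdown replicate 2 the median was 0.36 for the members and -0.27 for all genes. Without WT replicate 1 it was 0.86 for the members and 0.05 for all genes.

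The direction divided by the WT level of the gene. Of 17 tested members with a WT mean under 1 CPM, 14 rose and 0 fell, where 36.4% of all genes at that level rose and 16.6% fell. Of 15 members between 1 and 10 CPM, 10 rose and 3 fell, beside 31.6% and 36.6% of all genes. Of 24 members at 10 CPM or more, 3 rose and 14 fell, beside 18.3% and 41.3% of all genes. These classes use the WT values that also enter the fold change. A gene with hardly any WT count also passes the low-count filter only through its knockdown counts, and could then hardly be called lower. The classes therefore describe where the calls lie and no more. Members that rose had a median mean level of 8.95 CPM in knockdown libraries and 0.700 CPM in WT, and those that fell 3.14 CPM in knockdown libraries and 64.5 CPM in WT. The knockdown libraries held 26 and 28 members at 10 CPM or more, and the WT libraries 24 and 24.

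**Figure D1:**
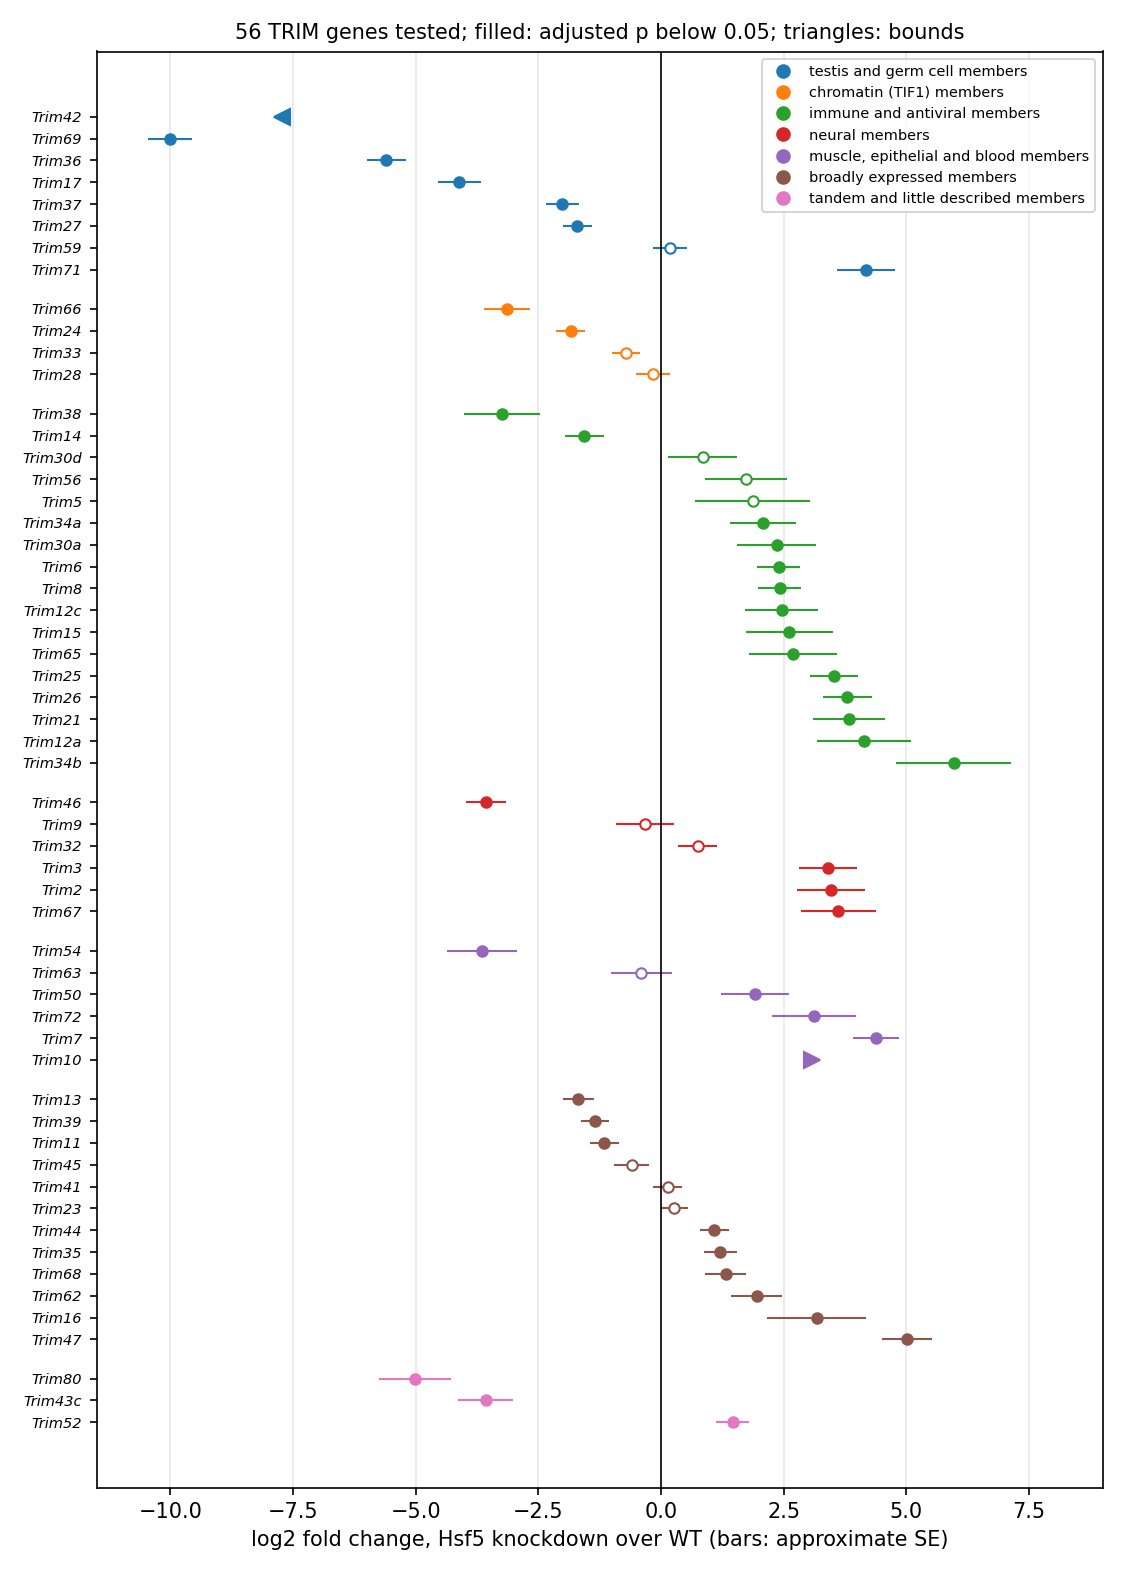
Log2 fold change of knockdown over WT (horizontal axis) for the 56 tested TRIM members, grouped by role, with bars of 1 approximate SE; filled points passed an adjusted p of 0.05 and triangles are bounds for a gene with no count in one group. Testis members lie mostly to the left, down to Trim69 at -10.01, and 12 of 17 immune members are filled points to the right of 0.

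Testis and germ cell members were the group that fell most often, with 6 of 8 tested members down, 1 up and 1 not past the test. The shares, 75% down and 12.5% up, stood beside 33.5% and 27.4% of all genes. The members' median log2 fold change was -3.06. Trim69, first described as a testis RING finger protein, had 10 and 7 counts in the knockdown and 7542 and 5093 counts in WT. Its level was 0.212 and 0.170 CPM in the knockdown, against 225 and 177 CPM in WT, and the log2 fold change was -10.01 (SE 0.45, adjusted p = 4.86e-06). Trim69 was thus nearly absent from both knockdown libraries. Trim42, a testis gene of little known function, had no count in either knockdown library and 299 and 147 counts in WT. Against a floor of 3 counts over the group it was at least 211-fold lower (adjusted p = 0.000121). A neighbouring gene overlaps Trim42 on the opposite strand, and whether the counting used strand is not known.

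Trim36, whose protein (haprin) sits on the acrosome and takes part in the acrosome reaction, was at 3.54 and 2.74 CPM in the knockdown, against 188 and 118 CPM in WT, a log2 fold change of -5.60 (SE 0.40, adjusted p = 1.12e-05). Trim17, also known as testis RING finger protein, was at 5.85 and 3.32 CPM in knockdown libraries and 97.3 and 61.6 CPM in WT, a log2 fold change of -4.11 (SE 0.44, adjusted p = 8.48e-05). For both genes every WT library stood far above every knockdown library, although 18.3% of the 50-base words of Trim17 are shared with another gene, a histone gene that overlaps it. Trim37 ubiquitinates histone H2A, limits centriole assembly and is needed for fertility in mice. Per length it was the most abundant of these genes in both genotypes, and it was at 455 and 392 CPM in the knockdown against 1628 and 1783 CPM in WT, a log2 fold change of -2.01 (SE 0.34, adjusted p = 0.000903). Trim27, known as Rfp and strongly expressed in spermatogenic cells, was at 96.7 and 80.2 CPM in knockdown libraries and 304 and 274 CPM in WT, with a log2 fold change of -1.71 (SE 0.29, adjusted p = 0.00104). The 6 falls passed the test under every alternative run.

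The other 2 germ cell members did not fall. Trim71, the mouse Lin41 gene, encodes a repressor of messenger RNAs in stem cells and early germ cells. It was at 11.01 and 29.1 CPM in the knockdown, against 1.10 and 1.11 CPM in WT, and rose by a log2 fold change of 4.17 (SE 0.60, adjusted p = 0.000394). The knockdown libraries differed from each other but both stood above the WT libraries, as did the spermatogonial, Sertoli cell, Leydig cell and leukocyte marker sums. The part of these markers in the rise of Trim71 was not tested. Trim59, a membrane-anchored RING protein, was at 53.1 and 41.7 CPM in knockdown libraries and 49.96 and 33.5 CPM in WT. Its groups overlapped, with a log2 fold change of 0.18 (SE 0.34, adjusted p = 0.658), and the sign turned to -0.56 with synaptonemal complex and cohesin scaling. The spermatid and pachytene markers moved down with the 6 that fell, and their part was not tested.

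The 4 TIF1 members add a PHD finger and a bromodomain to the TRIM fold. Of these 2 fell (50%, beside 33.5% of all genes) and 2 did not pass. Trim66, the testis TIF1 protein, was at 1.72 and 2.91 CPM in the knockdown, against 19.1 and 21.7 CPM in WT, a log2 fold change of -3.14 (SE 0.47, adjusted p = 0.000525). Trim24, a cofactor of nuclear receptors, was at 119 and 114 CPM in knockdown libraries and 453 and 383 CPM in WT, a log2 fold change of -1.84 (SE 0.30, adjusted p = 0.000752). In both genes the groups lay far apart.

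Trim33, a regulator of SMAD signalling, was at 71.6 and 87.8 CPM in the knockdown, against 119 and 141 CPM in WT. The groups did not overlap, and the log2 fold change of -0.71 (SE 0.29) missed the threshold at an adjusted p of 0.057. It passed as lower in 5 of 12 alternatives: without knockdown replicate 2 (adjusted p = 0.0434), with synaptonemal complex and cohesin scaling (0.0235), with DESeq2 size factors (0.044), at a mean of at least 1 CPM (0.0396) and with the replicate block (0.0123). Trim28, or KAP1, is the corepressor that KRAB zinc finger proteins bring to transposons. It was at 1053 and 694 CPM in the knockdown, against 996 and 953 CPM in WT, so the knockdown libraries lay on both sides of the WT values. Its log2 fold change was -0.16 (SE 0.34, adjusted p = 0.71). The sign of Trim28 was not fixed: it was 0.27 with library totals, 0.12 without knockdown replicate 2, and -0.95 (adjusted p = 0.0191) with synaptonemal complex and cohesin scaling.

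Among 26 tested genes that work with Trim28 in KRAB zinc finger silencing, 9 rose, 2 fell and 15 did not pass. That is 34.6% up and 7.69% down, beside 27.4% and 33.5% of all genes. The median log2 fold change was 0.15, and leaving out 1 library moved it to 0.04 without WT replicate 1, 0.31 without WT replicate 2, 0.29 without knockdown replicate 1 and 0.25 without knockdown replicate 2. Smarcad1, a chromatin remodeller that binds Trim28, was at 61.4 and 61.5 CPM in the knockdown, against 8.05 and 7.99 CPM in WT, a log2 fold change of 2.94 (SE 0.34). The X-linked histone chaperone Rbbp7 was at 183 and 177 CPM in knockdown libraries and 11.5 and 32.2 CPM in WT, with a log2 fold change of 3.04 (SE 0.47). For the deacetylase Hdac2 the values were 201 and 126 CPM in knockdown libraries and 55.2 and 48.8 CPM in WT, with a log2 fold change of 1.65 (SE 0.33). The 2 that fell were the imprinting factor Zfp57, by a log2 fold change of -2.08, and the heterochromatin protein gene Cbx5, by -0.93. On the scale of the synaptonemal complex and cohesin genes 3 rose, 7 fell and the median was -0.56, and without WT replicate 1 the list had 5 rises.

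**Figure D2:**
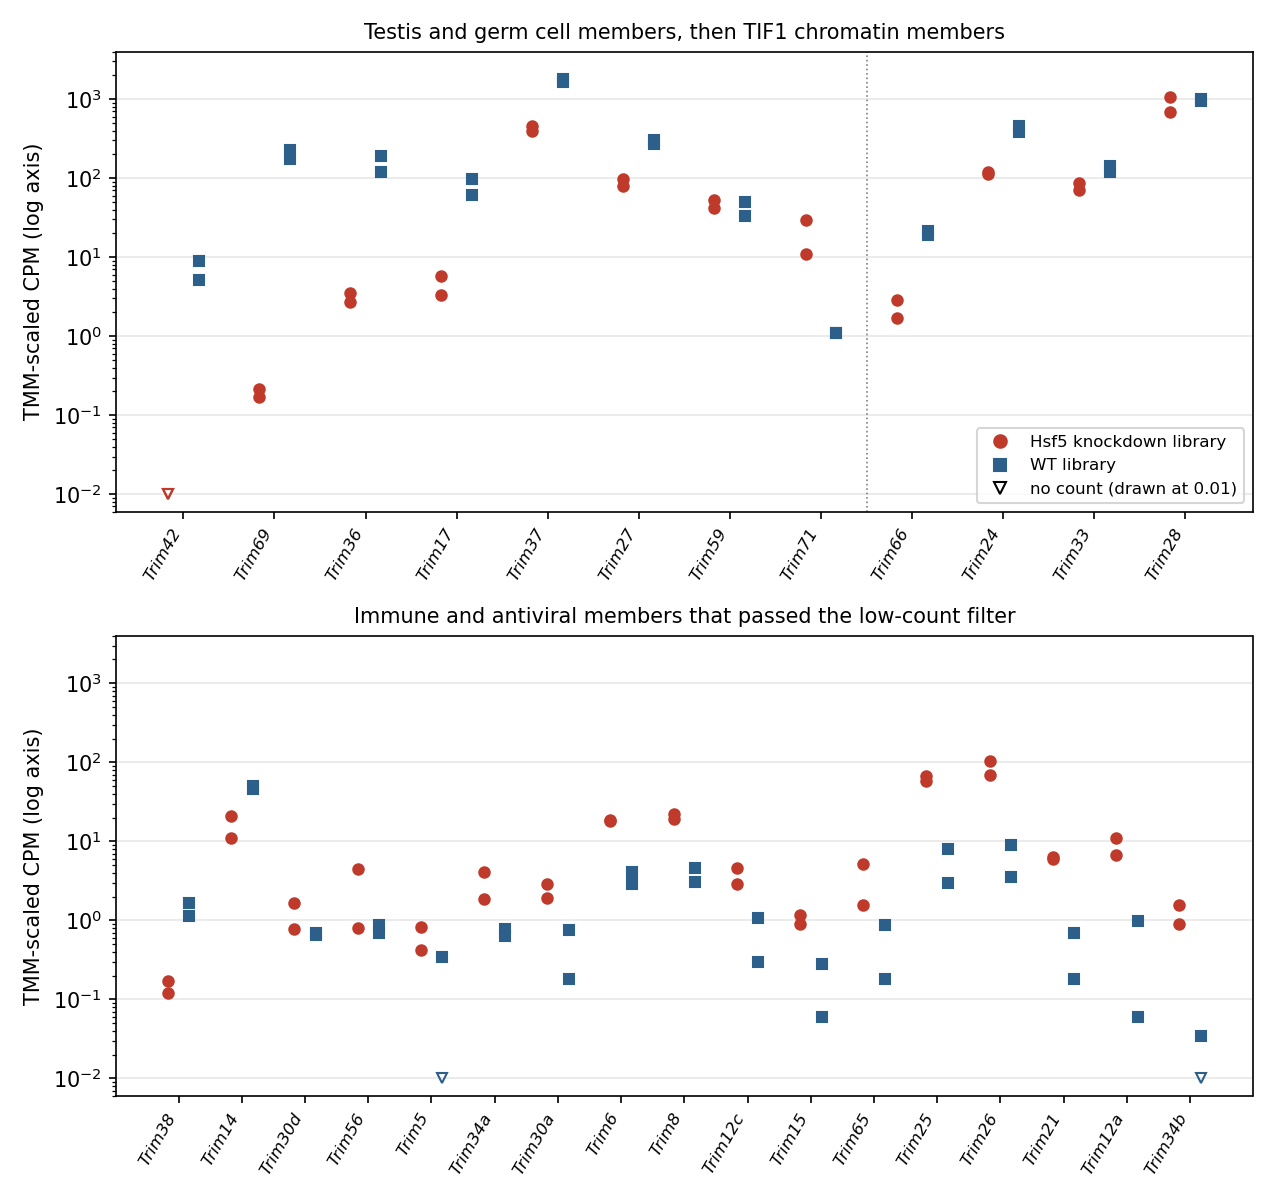
Level in each library (TMM-scaled CPM, log axis) of the tested testis, TIF1 and immune TRIM members, with knockdown libraries as circles left of WT libraries as squares; open triangles at 0.01 stand for no count. Trim69, Trim36 and Trim17 stand far lower in both knockdown libraries than in WT, Trim25 and Trim26 far higher, and the circles of Trim28 lie on both sides of its squares.

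Immune and antiviral members went mainly the other way: of 21 with a count, 17 were tested, 12 rose, 2 fell and 3 did not pass. That is 70.6% up and 11.8% down, beside 27.4% and 33.5% of all genes. Some of these members, such as Trim34b, had hardly any WT count and passed the low-count filter through their knockdown counts. The members' median log2 fold change was 2.43. The median was 3.71 without WT replicate 2. The rises numbered 7 without knockdown replicate 2 and 6 with synaptonemal complex and cohesin scaling. Leukocyte markers, Sertoli cell markers and Leydig cell markers moved up with them, and their part was not tested. The leukocyte sum was higher in knockdown replicate 1 than in replicate 2, at 212 and 69.7 CPM. The Sertoli cell sum, at 3546 and 4284 CPM, and the Leydig cell sum, at 1408 and 2861 CPM, were higher in replicate 2. Of the 12 members that rose, Trim25, Trim21, Trim6 and Trim15 were higher in replicate 1, Trim21 and Trim6 by little. Trim26, Trim8, Trim12a, Trim12c, Trim34a, Trim34b, Trim30a and Trim65 were higher in replicate 2. What lies behind the order of the replicates was not tested.

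Several of these genes share a short promoter element. Promoter letters were not used to choose the members, but the immune group was set by known roles, and several members are known interferon-stimulated genes. A high share of the element in that group is therefore no independent trait of it. The interferon-stimulated response element was searched as a GAAA repeated after any pair of bases (NN), or a TTTC repeated the same way, which covers both strands, in RefSeq windows from 250 bases before to 50 bases after each start site (GRCm38.p6). It was found in 9 of the 51 members with a window, 17.6%, beside 3.99% of 27025 genes. Of 18 immune members with a window 8 held it. By call, 7 of 21 members that rose held it, 0 of 12 that fell, 2 of 11 that did not pass and 0 of 7 untested. Of the members with a match, Trim34a, Trim5, Trim12a, Trim12c, Trim30a and Trim30d lie in the tandem cluster on chromosome 7. These counts therefore hold related promoters more than once, and the members are not independent genes to set against the share of all genes. The share of all genes was not taken by call, and a match describes the letters in the window only. The 8 immune stretches and the one of Trim2 follow, read along the gene from 5′ to 3′, with the element in capitals. They are shown because they carry the shared letters, and the lines for Trim5, Trim12a and Trim12c show how alike the tandem copies are.
Trim21, chr7:102565447-102565476, minus strand: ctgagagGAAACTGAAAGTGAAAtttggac
Trim34a, chr7:104244460-104244489, plus strand: tttggagTTTCAGTTTCttttctctgcagt
Trim5, chr7:104288133-104288162, minus strand: gttgtggTTTCTGTTTCatttccagagctc
Trim12a, chr7:104315463-104315492, minus strand: gttgtggTTTCTGTTTCatttccagagctc
Trim12c, chr7:104353356-104353385, minus strand: gttgtggTTTCTGTTTCatttccagctctc
Trim30a, chr7:104465207-104465236, minus strand: tctttagTTTCTTTTTCtcagttcctgccc
Trim30d, chr7:104507868-104507897, minus strand: tctttagTTTCTTTTTCtcagttcctgccc
Trim26, chr17:36836979-36837008, plus strand: cttccgaTTTCACTTTCCTTTTCtcgggcc
Trim2, chr3:84212789-84212817, minus strand: gctttggTTTCCTTTTCtctaagacagac

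Trim25 adds ubiquitin chains to the RNA sensor RIG-I. It was at 67.1 and 57.9 CPM in the knockdown, against 2.95 and 7.92 CPM in WT, a log2 fold change of 3.53 (SE 0.50, adjusted p = 0.000366). Rigi, the sensor's own gene, was at 8.17 and 7.13 CPM in knockdown libraries and 8.26 and 8.48 CPM in WT, with a log2 fold change of -0.13 (SE 0.43, adjusted p = 0.811). The ligase and its partner therefore gave different calls, and the difference between the 2 genes was not tested. Trim26, which acts on interferon induction and carries 2 overlapping elements in the stretch above, was at 70.0 and 104 CPM in the knockdown, against 3.52 and 9.04 CPM in WT. Its log2 fold change was 3.80 (SE 0.50, adjusted p = 0.000254). Trim21, the cytosolic antibody receptor, was at 6.33 and 6.01 CPM in knockdown libraries and 0.179 and 0.695 CPM in WT, a log2 fold change of 3.83 (SE 0.73, adjusted p = 0.00176). In all 3 ligase genes WT replicate 2 was the higher WT library and still lay far below the knockdown.

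Trim8 and Trim6, which tune cytokine signalling and interferon signalling, differed less. Trim8 was at 19.2 and 21.9 CPM in knockdown libraries and 3.07 and 4.59 CPM in WT, a log2 fold change of 2.43 (SE 0.44, adjusted p = 0.00134). Trim6 was at 18.9 and 18.2 CPM in knockdown libraries and 2.92 and 4.10 CPM in WT, a log2 fold change of 2.40 (SE 0.44, adjusted p = 0.00141), and lost its call with synaptonemal complex and cohesin scaling. Both had tight knockdown values. Trim65, which ubiquitinates the RNA sensor MDA5, was at 1.55 and 5.21 CPM in the knockdown, against 0.179 and 0.869 CPM in WT, with a log2 fold change of 2.70 (SE 0.90, adjusted p = 0.0262), and did not pass without knockdown replicate 2 (adjusted p = 0.205). Trim15, a neighbour of Trim26, was at 1.16 and 0.897 CPM in the knockdown, against 0.0596 and 0.278 CPM in WT. Its log2 fold change of 2.62 (SE 0.89, adjusted p = 0.0288) lost the call without WT replicate 1 (adjusted p = 0.184), without knockdown replicate 1 (0.126) and without knockdown replicate 2 (0.0612). The groups did not overlap for Trim65 or Trim15, but both rest on few counts in WT.

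The tandem cluster on chromosome 7 holds the mouse relatives of primate TRIM5, which blocks retroviral capsids, and of TRIM34. Trim12a was at 6.78 and 11.1 CPM in the knockdown, against 0.0596 and 0.973 CPM in WT, a log2 fold change of 4.13 (SE 0.95, adjusted p = 0.00458). Trim34b had 42 and 64 counts in the knockdown and 0 and 1 in WT, a ratio of 74.7 (95% interval 13.1 to 2976, counting error only; adjusted p = 0.00206). Both knockdown libraries stood above both WT libraries for each. The calls held under every alternative that tested the gene, 12 for Trim12a and 11 for Trim34b. Trim12c was at 2.90 and 4.63 CPM in knockdown libraries and 0.298 and 1.08 CPM in WT (log2 fold change 2.46, SE 0.74, adjusted p = 0.017). Trim34a was at 1.88 and 4.07 CPM in knockdown libraries and 0.775 and 0.626 CPM in WT (log2 fold change 2.08, SE 0.67, adjusted p = 0.0229). Trim30a, which restrains NF-kappaB signalling, was at 1.91 and 2.91 CPM in knockdown libraries and 0.179 and 0.765 CPM in WT (log2 fold change 2.36, SE 0.80, adjusted p = 0.0282). These 3 were less firm, since all lost the call with synaptonemal complex and cohesin scaling. Without knockdown replicate 2 the adjusted p was 0.0599 for Trim12c, 0.151 for Trim34a and 0.0935 for Trim30a, and without WT replicate 1 it was 0.0541 for Trim12c and 0.116 for Trim30a.

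Near-identical copies make single values in the cluster uncertain. In the longest transcripts, 59% of the 50-base words of Trim34b and 41.3% of those of Trim34a are shared with another gene, as are 38.1% for Trim5 and 32.7% for Trim12c, and it is not known how reads with several matches were counted. Trim5 itself was at 0.424 and 0.824 CPM in the knockdown, against 0 and 0.348 CPM in WT, with a log2 fold change of 1.87 (SE 1.17, adjusted p = 0.193), and passed without WT replicate 2 (adjusted p = 0.0114). Trim30d was at 0.784 and 1.65 CPM in knockdown libraries and 0.686 and 0.660 CPM in WT, with a log2 fold change of 0.85 (SE 0.71, adjusted p = 0.324). Trim30a and Trim30d carry the same 30 letters around the element and gave different calls, a difference that was not tested. Of the untested members, Trim30c had 8 and 0 counts in the knockdown and 56 and 0 in WT, so that replicate 2 of both genotypes held none. Trim30b had 0 and 0 counts in the knockdown and 2 and 0 in WT, Trim31 had 2 and 0 in the knockdown and none in WT, and Trim40 had 0 and 4 in the knockdown and none in WT.

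The exceptions among the immune members were Trim14, Trim38 and Trim56. Trim14, an adaptor without a RING finger that joins the mitochondrial antiviral complex, was at 11.1 and 21.2 CPM in the knockdown, against 49.99 and 45.7 CPM in WT. It fell by 1.57 on the log2 scale (SE 0.39, adjusted p = 0.00716) and did not pass without knockdown replicate 1 (adjusted p = 0.0555). Trim38, a brake on Toll-like receptor signalling, was at 0.169 and 0.121 CPM in knockdown libraries and 1.67 and 1.15 CPM in WT, a log2 fold change of -3.24 (SE 0.78, adjusted p = 0.0057). Both genes stood higher in every WT library. Trim56, which acts on the STING pathway, was at 0.805 and 4.41 CPM in the knockdown, against 0.864 and 0.695 CPM in WT, so 1 knockdown library was high and the other lay within the WT range. Its log2 fold change was 1.73 (SE 0.83, adjusted p = 0.0983), and it passed without knockdown replicate 1 (adjusted p = 0.00865) and with no filter on low counts (0.0214).

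The wider RNA and DNA sensing and interferon list gave 21 rises and 2 falls among 31 tested genes, with a median log2 fold change of 2.56. The shares, 67.7% up and 6.45% down, stood beside 27.4% and 33.5% of all genes. Scaling on synaptonemal complex and cohesin genes left 12 rises. Irf9, part of the factor that binds the interferon-stimulated response element, was at 28.0 and 17.8 CPM in the knockdown, against 1.70 and 1.98 CPM in WT, a log2 fold change of 3.64 (SE 0.47). The falls were Dhx58, a RIG-I-like receptor, and Cgas, the cytosolic DNA sensor. Dhx58 was at 2.82 and 4.70 CPM in knockdown libraries and 97.7 and 98.5 CPM in WT, a log2 fold change of -4.71 (SE 0.39). Cgas was at 3.77 and 4.41 CPM in knockdown libraries and 35.4 and 22.0 CPM in WT, a log2 fold change of -2.81 (SE 0.43). Both genes were thus higher in every WT library than in either knockdown library.

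Neural members split, with 3 of 6 up, 1 down and 2 not past, and a median log2 fold change of 2.08. The 50% that rose and 16.7% that fell stood beside 27.4% and 33.5% of all genes. Trim3 and Trim2 are NHL-repeat ligases of neurons and Trim67 acts in axon guidance. Trim3 was at 15.8 and 16.7 CPM in the knockdown, against 0.775 and 2.29 CPM in WT (log2 fold change 3.41, SE 0.59, adjusted p = 0.0011). Trim2 was at 2.60 and 3.88 CPM in knockdown libraries and 0.268 and 0.313 CPM in WT (log2 fold change 3.47, SE 0.69, adjusted p = 0.00211). Trim67 was at 2.03 and 1.58 CPM in knockdown libraries and 0.149 and 0.139 CPM in WT (log2 fold change 3.62, SE 0.77, adjusted p = 0.00298). All 3 were low in every WT library. Trim46, which bundles microtubules at the start of the axon, went the other way. It was at 2.71 and 2.38 CPM in the knockdown, against 30.2 and 30.03 CPM in WT (log2 fold change -3.56, SE 0.41, adjusted p = 0.00013), and overlaps Krtcap2 on the opposite strand. Trim32, a limb-girdle muscular dystrophy gene, was at 26.9 and 49.6 CPM in knockdown libraries and 19.0 and 26.5 CPM in WT, and Trim9, a neuronal relative of Trim67, at 1.59 and 2.21 CPM in knockdown libraries and 2.77 and 1.98 CPM in WT. The log2 fold change was 0.75 for Trim32 (SE 0.40, adjusted p = 0.128; 0.0428 without knockdown replicate 1, 0.0325 with library totals and 0.0363 with the replicate block) and -0.33 for Trim9 (SE 0.58, adjusted p = 0.649), and the groups overlapped for Trim9 and lay close together for Trim32. With library totals the value for Trim9 was 0.12.

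Members known from muscle, epithelium and blood rose in 4 of 6 tested cases, with 1 fall and 1 not past. The 66.7% that rose and 16.7% that fell stood beside 27.4% and 33.5% of all genes. The members' median log2 fold change was 2.52. That median was not stable: leaving out knockdown replicate 2 gave -0.12, leaving out knockdown replicate 1 gave 0.77 and leaving out WT replicate 2 gave 0.53. It was 0.80 with no filter on low counts and 0.75 with DESeq2's Wald test. Trim7 binds glycogenin, the primer of glycogen synthesis. It was at 62.1 and 81.4 CPM in the knockdown, against 2.12 and 4.76 CPM in WT (log2 fold change 4.38, SE 0.47, adjusted p = 9.29e-05). Trim72, which patches damaged muscle membranes, was at 2.92 and 0.970 CPM in knockdown libraries and 0.298 and 0.139 CPM in WT (log2 fold change 3.12, SE 0.86, adjusted p = 0.011), and did not pass without knockdown replicate 1 (adjusted p = 0.124). Trim50, known from stomach, was at 1.461 and 2.52 CPM in knockdown libraries and 0.626 and 0.417 CPM in WT (log2 fold change 1.92, SE 0.69, adjusted p = 0.0361). It lost the call without WT replicate 1 (adjusted p = 0.0505), WT replicate 2 (0.126) or knockdown replicate 2 (0.172). Trim10, known from red blood cell precursors, had 14 and 22 counts in the knockdown and none in WT, at least 8.45-fold higher (adjusted p = 0.00469; 0.0569 without WT replicate 1).

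The MuRF genes of muscle showed no shared rise. Trim54 was at 0.593 and 0.218 CPM in the knockdown, against 6.53 and 3.79 CPM in WT, and fell by 3.65 on the log2 scale (SE 0.72, adjusted p = 0.00202). Trim63 was at 1.74 and 1.14 CPM in knockdown libraries and 2.27 and 1.53 CPM in WT. Its groups overlapped, at a log2 fold change of -0.40 (SE 0.62, adjusted p = 0.599) that was 0.03 with library totals. Trim55, untested, had no count in the knockdown and 16 and 2 in WT, at least 8.52-fold lower, and Trim29 had 1 and 6 counts in the knockdown and 16 and 8 in WT. With no filter on low counts and with DESeq2's Wald test the group had 2 falls. Of 5 tested peritubular myoid markers, the smooth muscle genes Acta2, Myh11 and Des rose, by log2 fold changes of 3.68, 3.63 and 4.74, Actg2 fell by 5.80 on the log2 scale and Cnn1 did not pass. Their summed level was 97.7 and 23.5 CPM in knockdown libraries and 53.5 and 40.8 CPM in WT, of which Actg2 made up 49.7 and 34.5 CPM in WT. The part of these markers in the rises of the muscle, epithelial and blood members was not tested.

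Of 12 broadly expressed members 6 rose, 3 fell and 3 did not pass. The 50% that rose and 25% that fell stood beside 27.4% and 33.5% of all genes. The members' median log2 fold change was 0.68. The median became -0.03 with synaptonemal complex and cohesin scaling, where 1 rose, and it was 1.12 with library totals and 0.22 at a mean of at least 1 CPM. Trim47 rose furthest. It was at 72.4 and 67.6 CPM in the knockdown, against 1.22 and 3.13 CPM in WT, a log2 fold change of 5.01 (SE 0.51, adjusted p = 6.38e-05) that passed under every alternative run. Trim62, a cell polarity gene, was at 9.21 and 17.1 CPM in knockdown libraries and 2.56 and 4.24 CPM in WT (log2 fold change 1.95, SE 0.52, adjusted p = 0.00953; 0.0748 without knockdown replicate 2). Trim35 was at 128 and 177 CPM in knockdown libraries and 50.9 and 81.3 CPM in WT, a log2 fold change of 1.21 (SE 0.34, adjusted p = 0.0118). Trim44, which lacks a RING finger, was at 115 and 146 CPM in knockdown libraries and 54.0 and 68.9 CPM in WT, a log2 fold change of 1.09 (SE 0.30, adjusted p = 0.0112). These 2 were abundant in both genotypes, and without WT replicate 1 neither passed, at adjusted p of 0.171 for Trim35 and 0.161 for Trim44. Trim68 was at 14.8 and 15.7 CPM in knockdown libraries and 5.45 and 6.74 CPM in WT (log2 fold change 1.32, SE 0.42, adjusted p = 0.0206). It lost the call without WT replicate 1 (0.0915) or knockdown replicate 2 (0.0789). Trim16, another member without a RING finger, had 12 and 28 counts in the knockdown and 1 and 2 in WT, a ratio of 9.39 (95% interval 2.99 to 47.5). It passed at an adjusted p of 0.0221 but in no fit that left out a library, nor with the replicate block (adjusted p = 0.0654), DESeq2's Wald test (0.102) or synaptonemal complex and cohesin scaling (0.0946).

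The broadly expressed members that fell were all at 56.8 CPM or more in WT. Trim13, a ligase of the endoplasmic reticulum, was at 21.2 and 19.0 CPM in the knockdown, against 72.2 and 56.8 CPM in WT (log2 fold change -1.68, SE 0.32, adjusted p = 0.00181). Trim39, which restrains the anaphase-promoting complex, was at 60.6 and 55.9 CPM in knockdown libraries and 151 and 145 CPM in WT (log2 fold change -1.34, SE 0.28, adjusted p = 0.0027). Trim11 was at 143 and 165 CPM in knockdown libraries and 313 and 374 CPM in WT (log2 fold change -1.16, SE 0.29, adjusted p = 0.00759; 0.101 without WT replicate 2). All 3 had groups that lay well apart. Trim45 was at 17.7 and 16.1 CPM in knockdown libraries and 28.6 and 22.6 CPM in WT and missed the threshold (log2 fold change -0.60, SE 0.36, adjusted p = 0.172). Trim23, which ends in an ARF-type GTPase, was at 102 and 89.7 CPM in knockdown libraries and 83.7 and 74.6 CPM in WT (log2 fold change 0.27, SE 0.28, adjusted p = 0.42). Trim41 was at 277 and 205 CPM in knockdown libraries and 204 and 236 CPM in WT (log2 fold change 0.13, SE 0.30, adjusted p = 0.722), with groups that overlapped. With synaptonemal complex and cohesin scaling the signs turned, to -0.46 for Trim23 and -0.65 for Trim41, while with library totals Trim23 passed as higher (log2 fold change 0.71, adjusted p = 0.0409).

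Of 7 little described members with a count 3 were tested, of which 1 rose and 2 fell. These are 33.3% and 66.7%, beside 27.4% and 33.5% of all genes. Trim80 was at 0.339 and 1.75 CPM in the knockdown, against 41.4 and 26.0 CPM in WT (log2 fold change -5.02, SE 0.73, adjusted p = 0.000448). Trim43c was at 0.635 and 1.33 CPM in knockdown libraries and 10.9 and 12.6 CPM in WT (log2 fold change -3.58, SE 0.57, adjusted p = 0.000702). Both fell in every fit run, although 42.4% of the 50-base words of Trim43c are shared with another gene. Trim52 was at 45.8 and 38.0 CPM in knockdown libraries and 16.0 and 14.5 CPM in WT (log2 fold change 1.461, SE 0.34, adjusted p = 0.00486), and lost its call with synaptonemal complex and cohesin scaling. The copies of Trim43c had few counts: Trim43a had 13 and 6 in the knockdown and 9 and 4 in WT, and Trim43b had 0 and 0 in the knockdown and 5 and 0 in WT. Trim61 had 10 and 4 counts in the knockdown and none in WT, at least 3.29-fold higher and untested, and Trim60, which overlaps it, had 0 and 4 in the knockdown and none in WT.

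The makeup of the whole TRIM pool followed from these shifts. Per length, as CPM per kilobase of the longest annotated transcript, the members summed to 861 and 757 in the knockdown and 1367 and 1319 in WT. Testis and germ cell members made up 14.5% and 14.1% of that sum in the knockdown, against 42.0% and 40.6% in WT. Immune members made up 5.91% and 8.71% in the knockdown and 1.79% and 1.94% in WT, and broadly expressed members 31.6% and 35.8% in the knockdown and 20.3% and 23.0% in WT. TIF1 members made up 42.1% and 33.3% in the knockdown and 31.8% and 30.8% in WT. In each of these the groups did not overlap, although for TIF1 members knockdown replicate 2 lay close to WT. Shares within a library do not depend on scaling. The larger shares of TIF1 and broadly expressed members came with no higher level per kilobase under TMM. TIF1 members summed to 362 and 252 in the knockdown and 435 and 407 in WT, and broadly expressed members to 272 and 271 in the knockdown and 278 and 303 in WT. Trim28 alone held 37.7% and 28.3% of the per-length sum in the knockdown and 22.5% and 22.3% in WT. Trim37 held 9.40% and 9.19% in the knockdown and 21.2% and 24.0% in WT, and Trim69 0.01% and 0.01% in the knockdown and 9.22% and 7.53% in WT. Per kilobase Trim37 (289 and 317) and Trim28 (307 and 294) stood at a like level in WT, and in the knockdown Trim28 (324 and 214) stood above Trim37 (80.9 and 69.6).

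**Figure D3:**
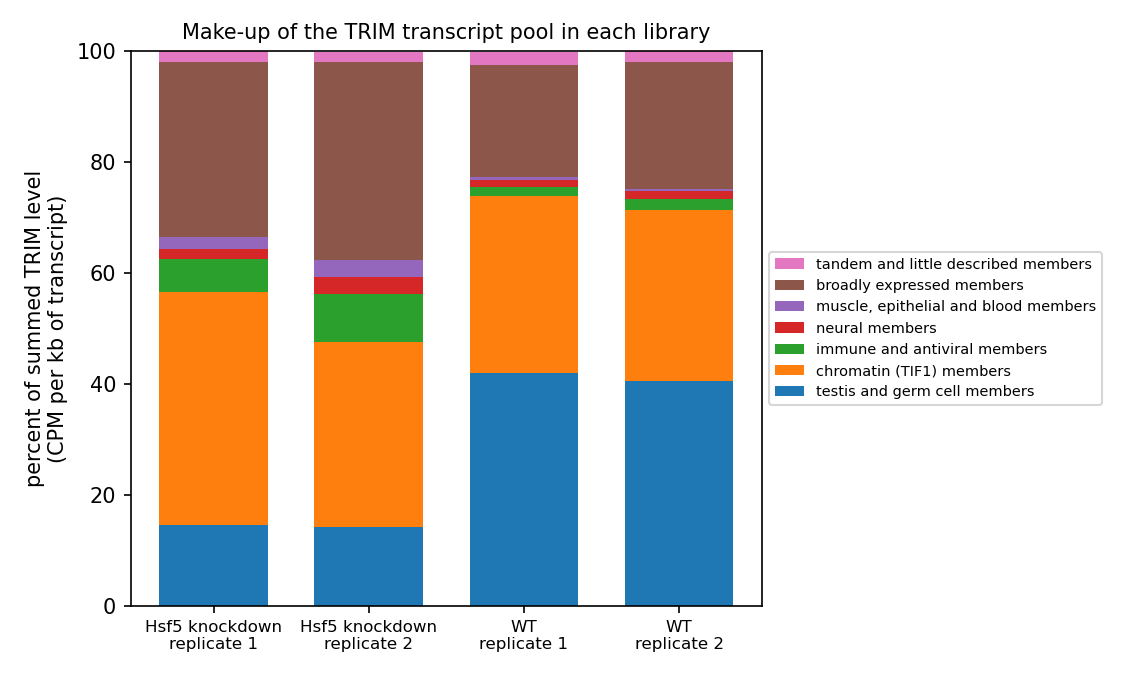
Share of the summed per-length level of all TRIM members (percent of CPM per kilobase, vertical axis) held by each role group in each library, knockdown libraries on the left. Testis and germ cell members hold 14.5% and 14.1% in the knockdown and 42.0% and 40.6% in WT.

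Neighbouring members moved together in places and apart in others. Chromosome 7 carried 16 members, and of the 14 tested 10 rose and 1, Trim66, fell, where 27.4% and 33.5% of all genes did. Chromosome 11 carried 10 members with a count, all tested, with 5 rises and 4 falls. There Trim47 and Trim65 are adjacent and both rose, whereas Trim41, which did not pass, lies beside Trim7, which rose. Trim17 and Trim11 have 2 other coding genes between them and both fell. On chromosome 17, where 6 members lie, Trim39 fell and Trim26, Trim15 and Trim10, which follow it after 9 other coding genes, rose. Some of these neighbours overlap: 4.49% of the 50-base words of Trim65 are shared with Trim47, and Trim41 overlaps Rack1 and Trim35, Trim7, Trim14, Trim54, Trim71, Trim72 and Trim9 overlap other genes on the opposite strand. Trim16 overlaps Fbxw10 on the same strand.

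**Figure D4:**
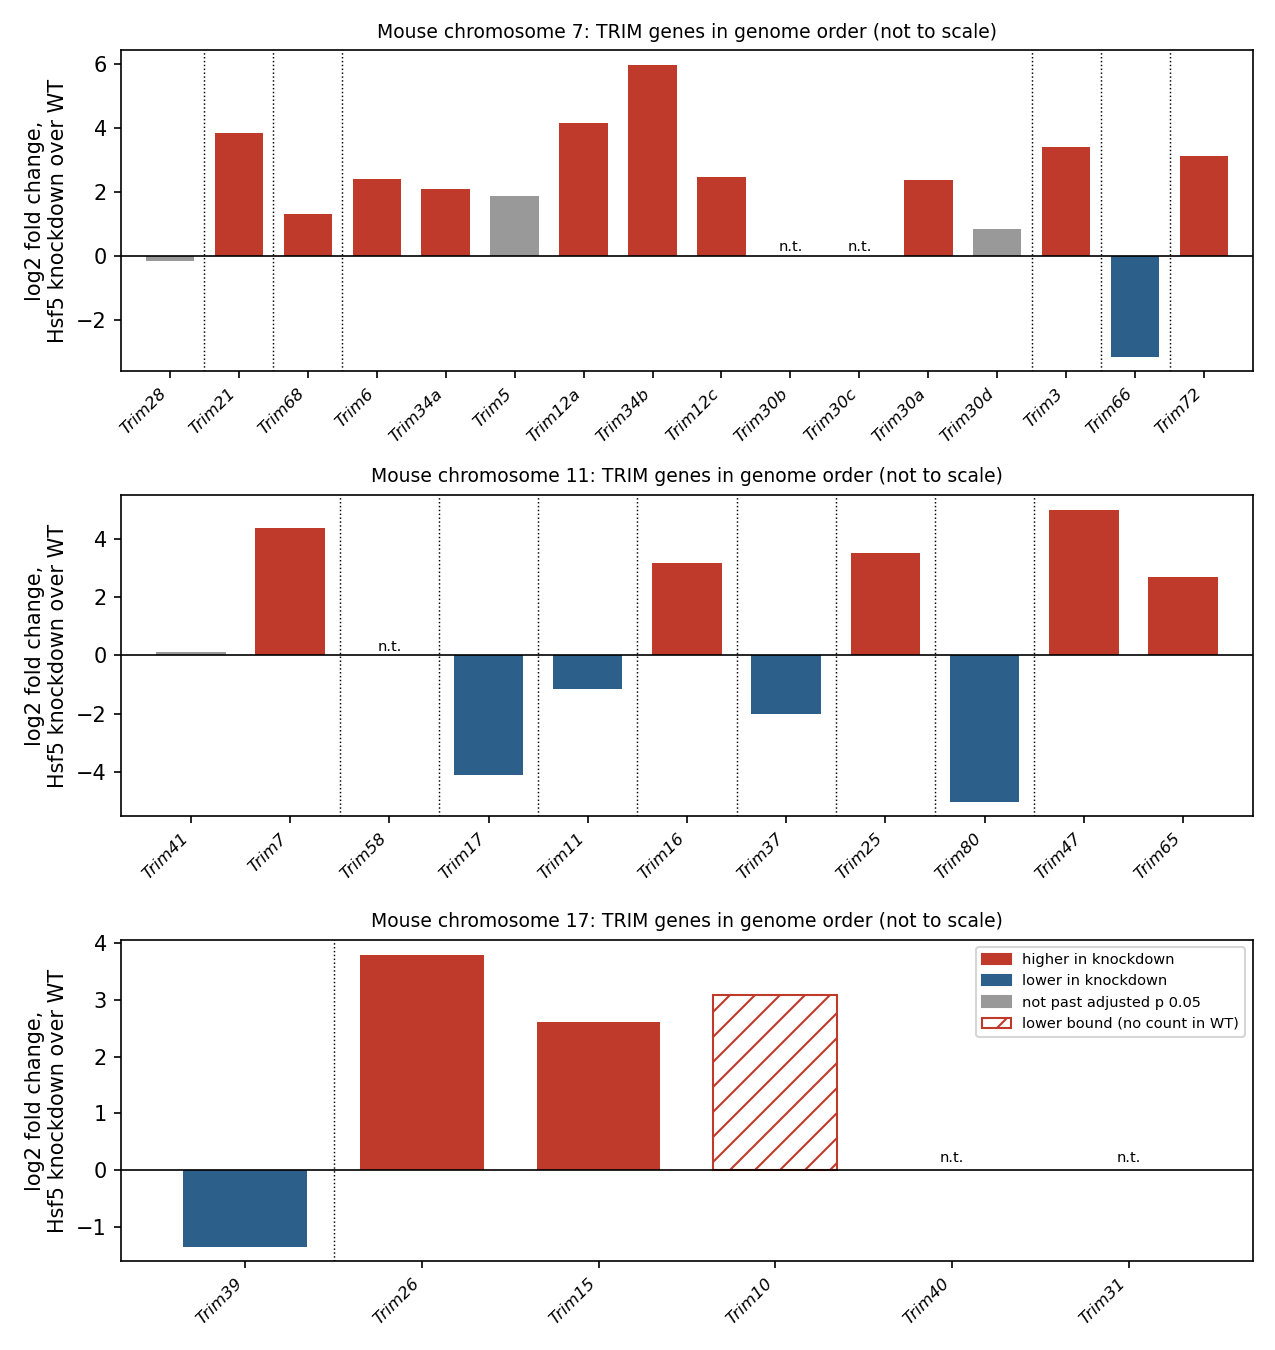
Log2 fold change of knockdown over WT (vertical axis) for TRIM members in their order along chromosomes 7, 11 and 17, with bars in order and not to genomic scale; n.t. marks genes not tested (Trim58 had no count), hatching a bound, and dotted lines more than 1 other coding gene between neighbours. On chromosome 7 10 of 14 tested members rose, and on chromosome 11 5 of 10 rose and 4 fell.

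Heat shock factors bind repeated GAA and TTC units, so the same promoter windows were searched for them. With 2 facing units, GAANNTTC or TTCNNGAA, each of which reads the same on both strands, 13 of 51 members had a match (25.5%), beside 16.97% of all genes. Matches were found for 3 of 21 members that rose, 6 of 12 that fell, 3 of 11 that did not pass and 1 of 7 untested. The 3 that rose were Trim25, with 2 matches in its window, Trim30a and Trim72. The share of all genes was not taken by call, so the split has no background and describes these members only. With a further unit in alternate order after another NN, 3 units in all, 0 of 51 members had one, beside 0.662% of all genes. No match overlapped an interferon-stimulated response element. The stretches of the 6 members that fell are shown because Hsf5 belongs to this factor family, with the units in capitals. They say nothing of binding.
Trim54, chr5:31116458-31116487, plus strand: ccaccccTTCCTGAAtgagtcagggccact
Trim24, chr6:37900463-37900492, plus strand: ctgtagaTTCTAGAAcctcacaaggaccta
Trim66, chr7:109508085-109508105, minus strand: ttacctgTTCAAGAActgctc
Trim38, chr13:23782545-23782574, plus strand: acatttgGAAACTTCtcagaaaaagccatg
Trim13, chr14:61599371-61599400, plus strand: tttgttgTTCTTGAAaaatgcaagtaacaa
Trim39, chr17:36272232-36272254, minus strand: GAAGATTCtcttcttcacgggct

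TRIM proteins under other names were listed beside the members. Of 8 tested, 5 rose (62.5%, beside 27.4% of all genes), 2 fell (25%, beside 33.5%) and 1 did not pass. Their median log2 fold change was 2.42, and it was 1.30 without knockdown replicate 2 and 1.36 without WT replicate 1. Fsd1, a microtubule-binding relative, was at 16.3 and 12.3 CPM in the knockdown, against 1.37 and 1.70 CPM in WT (log2 fold change 3.22, SE 0.49, adjusted p = 0.000555). Triml1, a TRIM-like gene, was at 2.58 and 2.74 CPM in knockdown libraries and 24.8 and 14.5 CPM in WT (log2 fold change -2.88, SE 0.47, adjusted p = 0.000802). Mid1, an X-linked ligase of microtubules and the Opitz syndrome gene in human, was at 3.47 and 5.96 CPM in knockdown libraries and 0.298 and 0.382 CPM in WT (log2 fold change 3.78, SE 0.67). No member with a numbered Trim symbol is on the X chromosome. The falls in this list numbered 1 in each fit that left out WT replicate 2 or either knockdown library.

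The E1 and E2 enzymes that feed the ligases were divided: of 31 tested, 10 rose, 2 fell and 19 did not pass. The share that rose, 32.3%, lay near the 27.4% of all genes, and 6.45% fell, beside 33.5% of all genes. The median log2 fold change was 0.48, and it was -0.28 with synaptonemal complex and cohesin scaling, 0.92 with library totals, 0.82 without knockdown replicate 2 and 0.23 without knockdown replicate 1. Ube2d2b, an E2 gene of testis with close relatives elsewhere, was at 12.2 and 12.7 CPM in the knockdown, against 484 and 359 CPM in WT, a log2 fold change of -5.08 (SE 0.35). Ube2d1, of the same E2 class, was at 12.7 and 14.7 CPM in knockdown libraries and 0.626 and 0.417 CPM in WT, a log2 fold change of 4.70 (SE 0.55). These 2 genes of 1 class that works with many RING ligases thus went opposite ways, while 2 others did not pass. Ube2d3 was at 415 and 249 CPM in knockdown libraries and 382 and 280 CPM in WT (log2 fold change 0.01, SE 0.35). Ube2d2a was at 180 and 139 CPM in knockdown libraries and 189 and 170 CPM in WT (log2 fold change -0.17, SE 0.29). Ube2z was at 194 and 159 CPM in knockdown libraries and 48.2 and 54.2 CPM in WT, a log2 fold change of 1.79 (SE 0.29). The list had 1 fall without WT replicate 1 and 1 without WT replicate 2.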

How the data were processed

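Polyadenylated RNA was measured in 2 Hsf5 knockdown and 2 WT libraries. The authors deposited raw read counts per gene, 1 column per library; per the submitters' processing notes the build was mm39 and the tools were featureCounts 1.5.3, HISAT2 2.2.1, DESeq2 1.46.0 and Trim Galore 0.6.10. Not given in the sources used here are the annotation, the strand setting and the handling of reads with several matches, which leaves overlapping and duplicated genes uncertain. The labels call the replicates biological without naming animals, and a p-value here reflects only how these libraries vary.

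The deposited counts were fitted in R 4.3.3 with edgeR 4.0.16 (filterByExpr, TMM, quasi-likelihood F test, Benjamini-Hochberg adjustment at 0.05). TMM factors were 1.11 and 1.22 in the knockdown and 0.854 and 0.865 in WT, and the biological coefficient of variation was 0.356. The code was tested on simulated data. SE is the size of the log2 fold change over the root of its F statistic. Genes with no count in a group were bounded by a floor of 3 counts for the whole group (knockdown 0.0339 CPM, WT 0.0481 CPM), and 1 to 3 counts have an exact binomial 95% interval. Bounds and intervals cover counting error only. Alternatives were other scalings, filters of none or at least 1 CPM, DESeq2 1.42.0, a replicate block and each library left out.

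All tested members are named, and listed partner genes by smallest p, up to 3 a list. Members against their list, and Ube2d2a and Ube2d3, were named after their values were seen. Members, role groups and lists were chosen with earlier results of these data known. Promoter windows are RefSeq's (GRCm38.p6, read with their own coordinates, not converted to mm39). Shared 50-base words and transcript lengths come from GENCODE M21, and gene order from RefSeq GRCm38.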

Additional observations from a re-analysis of the deposited data

How the results depend on the processing

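Depth, at 33287428 to 42479164 counts, limits mainly members under 1 CPM in WT, and with 2 libraries a group some calls rest on 1 library. Of the 44 members that rose or fell, 27 kept direction and call under every alternative that tested them. With scaling on synaptonemal complex and cohesin genes, 13 members rose (median log2 fold change 0.46), and the counts were 6 rises for immune members, 2 for muscle, epithelial and blood members, 1 for broadly expressed and 0 for little described members, 4 falls for TIF1 members, 3 rises and 7 falls for the partners of Trim28, 12 rises for the interferon list, and 4 rises and 7 falls for E1 and E2 enzymes. The log2 fold change turned to -0.46 for Trim23, -0.65 for Trim41 and -0.56 for Trim59. With library totals the members' median was 1.59, the partners of Trim28 and the E1 and E2 enzymes each had 1 fall, and the sign turned for Trim9 (0.12), Trim28 (0.27) and Trim63 (0.027). At a mean of at least 1 CPM the median was 0.75, immune members had 1 fall and TRIM proteins named otherwise 1. With no filter and with DESeq2's Wald test, muscle, epithelial and blood members had 2 falls. Asking for 2-fold left the partners of Trim28 with 1 fall.

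Leaving out 1 library gave 17 to 26 rises and a median of 0.36 to 1.31 over all members, 7 to 13 rises and 1 to 3 falls of immune members, 2 to 3 rises and 1 to 2 falls of muscle, epithelial and blood members, and 2 to 5 rises of broadly expressed members. For the lists it gave 1 to 2 falls of TRIM proteins named otherwise, 5 to 10 rises and 1 to 2 falls of partners of Trim28, and 1 to 3 falls of E1 and E2 enzymes. The log2 fold change ranged over -0.029 to 0.33 for Trim41 (negative without knockdown replicate 1), -0.42 to 0.12 for Trim28 (positive without knockdown replicate 2) and -0.051 to 0.48 for Trim59 (negative without WT replicate 2). The cause of these shifts was not tested.

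Same-numbered libraries deviated together, with a correlation of 0.32 over genes. With 2 pairs and no label that ties them, whether they share more than a number is not known. With the replicate block 27 members rose and 18 fell, with a median of 1.16, Trim33 passed as lower (adjusted p = 0.0123), Trim32 passed as higher (0.0363), Trim16 no longer passed (0.0654), and the partners of Trim28 had 4 falls.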
